A study of Mus musculus with 5 samples.

Results

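The genes described here are 39 antioxidant, glutathione and detoxification genes of primary mouse lung fibroblasts, chosen by name from the 55335 gene IDs of a count table. All 39 were matched to an Ensembl ID by their GENCODE M21 symbol. They comprise 2 oxidant sources, Nox4 and Cyba, and 37 defence genes in 9 roles. The fibroblasts were isolated from mice and cultured, and 3 libraries come from cells exposed for 24 h to TGF-β1 (5 ng/mL). The other 2, called controls, come from cells given vehicle, and no genotype, strain, age or further treatment is named. The series calls its replicates independent and biological without saying whether they came from separate mice, and each p-value rests on how these 5 libraries vary, which may be technical. Levels are TMM-normalised CPM (counts scaled to a common library size adjusted for composition). Differences are log2 fold changes (log2FC), positive where TGF-β1 is higher, and a gene was called higher or lower at an adjusted p under 0.05 by edgeR's quasi-likelihood test.

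Oxidants such as superoxide and hydrogen peroxide are made on purpose by NADPH oxidases and as a by-product by mitochondria. NOX4 makes mostly hydrogen peroxide, is anchored to the membrane subunit p22phox (Cyba), and is a known target of TGF-β in fibroblasts of fibrotic lung. Superoxide dismutases and catalase remove these oxidants, as do glutathione peroxidases and peroxiredoxins, which use glutathione and thioredoxin as electron donors. Glutathione transferases, aldehyde dehydrogenases and epoxide hydrolase clear reactive chemicals, and metallothioneins bind zinc, copper and cadmium. Many of these genes are switched on through the antioxidant response element by the transcription factor NRF2, which KEAP1 holds in check, and the metallothioneins through metal response elements by MTF1.

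Libraries held 34283288 to 43163967 counts, the shares of mitochondrial counts were 2.13% to 2.27%, and the 39 genes took 0.387% and 0.394% of the control counts and 0.331% to 0.341% with TGF-β1. Fibroblast markers were abundant in all 5 libraries, with 26140 and 27148 summed CPM in the controls and 33270 to 33535 with TGF-β1, although 5 of the 9 were lower, among them Pdgfra, Dcn and Thy1. The cultures also held RNA of other cell types. Markers of macrophages and leukocytes summed to 2732 and 2810 CPM in the controls and 1760 to 1781 CPM with TGF-β1, and 9 of these 12 genes were lower and 1 was higher. Markers of mesothelium, the lining of the lung surface, summed to 1803 and 1895 CPM against 487 to 511 CPM, and 11 of 13 were lower and 1 was higher. Beside these marker counts, 23.2% of all genes tested were lower and 21.3% were higher. Endothelial markers summed to at most 8.47 CPM and airway and alveolar epithelial markers to at most 5.97 CPM in any library, and 5 of the latter (Scgb1a1, Cyp2f2, Sftpc, Sftpb and Nkx2-1) had 0 counts in all libraries. The part of macrophage and mesothelial RNA in the results below was not tested, and in such bulk samples fewer cells of a type and less RNA per cell cannot be told apart.

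To show where antioxidant and metal response elements lie, the RefSeq promoter windows of GRCm38.p6 (250 bases before to 50 after the transcription start) were read for the 31 of 39 genes that have at least 1. Where a gene has several, the window nearest its GENCODE start was used and the others do not enter the counts over 31. The antioxidant response element core TGACNNNGC, searched on both strands, was in 8 of the 31 windows (25.8%) and in 12.4% of all 32851 windows of this length. Among the windows it was in 0 of 6 genes called higher, 3 of 15 called lower and 5 of 10 that did not pass. The higher count includes the oxidant source Nox4, and the lower count includes Cyba. Prdx6, which rose most among the defence genes, has no window, nor have Sod3, Gsta4 and Aldh2, which fell. Hmox1, Gclc and Gsr, which did not pass, and Aldh3a1, which was not tested, have none either. The promoters of these genes were therefore not read. The 8 matches are printed 5′ to 3′ on the strand of the match, with the motif in capitals and 10 bases on each side, because they set genes that moved strongly beside genes that did not.
Gclm, chr3:122245413-122245441, minus strand: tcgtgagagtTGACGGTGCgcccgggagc
Sod1, chr16:90220696-90220724, minus strand: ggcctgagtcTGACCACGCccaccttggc
Prdx1, chr4:116685456-116685484, minus strand: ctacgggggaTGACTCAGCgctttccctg
Srxn1, chr2:152105542-152105570, minus strand: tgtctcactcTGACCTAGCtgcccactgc
Gstm5, chr3:107895802-107895830, plus strand: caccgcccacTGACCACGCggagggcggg
Gsta3, chr1:21240454-21240482, plus strand: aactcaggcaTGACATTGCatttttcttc
Mgst1, chr6:138140461-138140489, minus strand: ccccgcctccTGACCGTGCcaagccccgc
Mt2, chr8:94172529-94172557, plus strand: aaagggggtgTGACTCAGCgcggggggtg
The first 5 belong to genes that did not pass the test, with log2 fold changes from −0.17 (Gclm) to 0.06 (Prdx1), and the last 3 to genes that were lower, with −0.83 for Gsta3, −2.16 for Mgst1 and −1.92 for Mt2. Prdx1 and Mt2 carry the same 9 letters, as do Sod1 and Gstm5. A match is a description of the letters and not evidence that a factor binds there.

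The metal response element, searched as TGCACNC or TGCGCNC on both strands, was in 9 of the 31 windows (29.0%) and in 25.7% of all windows. The metallothionein windows had the most matches, 4 in Mt2 and 3 in Mt1, level with 3 in Gclm. Both are printed to 30 bases after the start, plus strand, with these matches in capitals, because Mt1 and Mt2 lie side by side on chromosome 8 and fell together.
Mt1, chr8:94178839-94179118: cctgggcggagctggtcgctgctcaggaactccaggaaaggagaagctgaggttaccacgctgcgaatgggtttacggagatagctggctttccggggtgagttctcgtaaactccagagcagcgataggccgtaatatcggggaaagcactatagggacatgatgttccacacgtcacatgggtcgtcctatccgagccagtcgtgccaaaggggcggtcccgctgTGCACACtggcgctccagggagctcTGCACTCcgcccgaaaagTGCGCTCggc
Mt2, chr8:94172368-94172647: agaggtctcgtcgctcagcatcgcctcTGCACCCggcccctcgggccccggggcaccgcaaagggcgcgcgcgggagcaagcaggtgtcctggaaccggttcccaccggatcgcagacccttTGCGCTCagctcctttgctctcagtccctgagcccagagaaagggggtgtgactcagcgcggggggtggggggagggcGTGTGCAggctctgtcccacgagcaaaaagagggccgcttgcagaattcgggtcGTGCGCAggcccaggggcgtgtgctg
The xenobiotic response element TNGCGTG and the SMAD palindrome GTCTAGAC were each in 0 of the 31 windows, against 5.07% and 0.213% of all windows, which says only that these letters are not in these windows.

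The comparison asked how oxidant sources and defences differ after TGF-β1. The catalytic oxidase subunit Nox4 rose, 17 of the 36 defence genes that passed the low-count filter fell, and 6 rose. Of all 16380 genes tested, 44.5% were called, 23.2% lower and 21.3% higher. Among the 36 tested defence genes, 47.2% were lower, 16.7% were higher and 13 did not pass, and the median log2 fold change was −0.15 against 0.00 over all genes. Falls of at least 2-fold were seen in 9 defence genes and a rise of that size in 1, where 7.74% and 3.19% of all genes did so. In 30 of the 36, every TGF-β1 library lay on 1 side of both controls, against 64.6% of all genes. With library totals in place of TMM scaling, 4 defence genes were higher and 22 lower, and over all genes the higher share of calls was 32.1% in place of 47.9%. Leaving out 1 library at a time gave 4 to 6 higher and 15 to 20 lower. Aldh3a1, an aldehyde dehydrogenase best known from cornea and stomach, had 0 counts in all 5 libraries and was not tested.

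**Figure D1:**
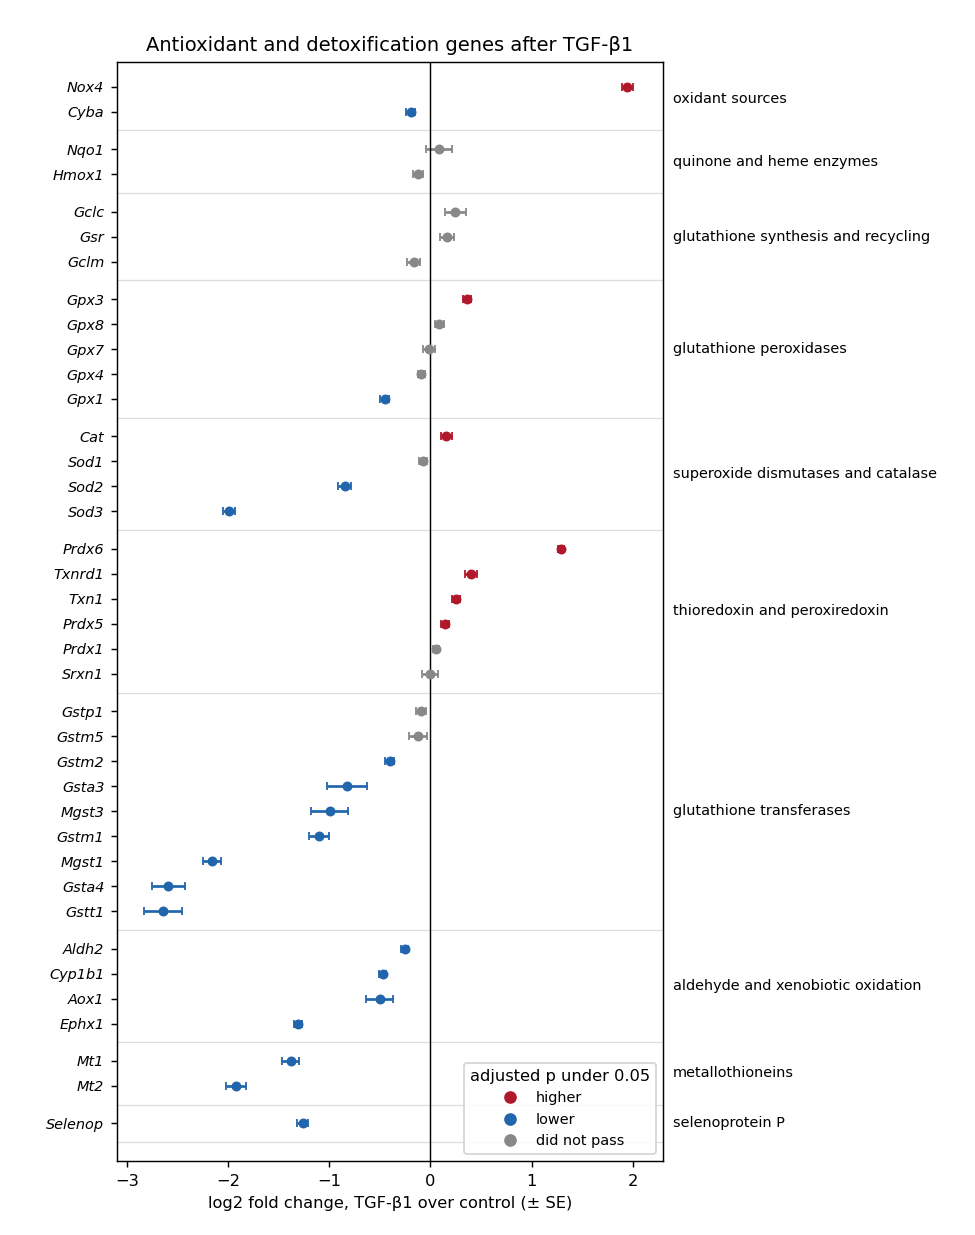
Log2 fold change (TGF-β1 over control, x axis) with its standard error for the 38 tested genes, grouped by role, red where higher, blue where lower and grey where the test was not passed. All points are blue for aldehyde and xenobiotic oxidation, the metallothioneins and selenoprotein P, as are 7 of 9 glutathione transferases, while the quinone, heme and glutathione synthesis genes are grey.

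Nox4 (ENSMUSG00000030562, chr7:87246096-87398710 of GRCm38) stood at 16.7 and 17.7 CPM in the controls and at 64.8, 66.3 and 68.6 CPM with TGF-β1. The groups were far apart, and the log2 fold change was 1.95 (SE 0.058, adjusted p = 1.12e-08), or 3.86-fold. Cyba (ENSMUSG00000006519, chr8:122424776-122432930), which encodes the p22phox partner of NOX4 and of the phagocyte oxidase, moved the other way by a little. Its levels were 72.6 and 70.9 CPM in the controls and 63.7, 61.6 and 62.5 CPM with TGF-β1 (log2FC −0.20, SE 0.044, adjusted p = 0.00578), a call that was lost without control 1 (adjusted p = 0.0545). Per kilobase of exon, Cyba was well above Nox4 in both groups, at 69.0 ± 1.14 against 2.03 ± 0.0857 CPM per kb (SD, n = 2) in the controls and 60.2 ± 1.02 against 7.86 ± 0.222 (SD, n = 3) with TGF-β1.

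Subunits of the phagocyte oxidase were lower or did not pass. Cybb, the catalytic subunit of the phagocyte oxidase, was at 69.3 and 72.0 CPM in the controls and at 34.3, 37.7 and 37.9 CPM with TGF-β1 (log2FC −0.95, SE 0.058, adjusted p = 1.36e-06). Its activator Rac2 went from 33.7 ± 0.812 to 21.1 ± 1.44 CPM (log2FC −0.68), and the cytosolic subunit gene Ncf4 from 9.17 ± 0.0213 to 5.97 ± 0.586 CPM (log2FC −0.62). Of 10 other oxidase genes tested, 4 were lower, 5 had no call and 1 was higher, a share of calls near the 44.5% of all genes. One of the 4 was Nox1, at under 1 CPM in every library and uncertain because its exons overlap the far more abundant Cstf2. The higher one, named after its value was seen, was Poldip2, a NOX4-binding protein, at 53.4 ± 1.32 and 62.1 ± 2.35 CPM (log2FC 0.22). Cybb, Rac2 and Ncf4 are genes of phagocytes, and the 12 macrophage and leukocyte markers had a median log2FC of −0.27 in the same libraries. The most marked falls among them were in Itgam (−0.92) and Lyz2 (−0.81), Csf1r fell by 0.20, C1qa (−0.03) did not pass, and Ptprc was higher (0.29). Their part in the result was not tested.

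The largest rise among the defence genes was in Prdx6 (ENSMUSG00000026701, chr1:161240112-161251219), a peroxiredoxin with a single active cysteine that also has phospholipase activity and can reduce lipid peroxides. It stood at 151 and 157 CPM in the controls and at 371, 379.7 and 377 CPM with TGF-β1. All 3 TGF-β1 libraries were close together and above both controls (log2FC 1.29, SE 0.032, adjusted p = 4.01e-09). Txnrd1, the selenium-containing reductase that recharges cytosolic thioredoxin, rose from 166 and 168 CPM to 209.6, 211 and 243 CPM (log2FC 0.40, SE 0.061, adjusted p = 0.00054), highest in replicate 3. Thioredoxin itself, Txn1, rose from 139 ± 3.71 to 165 ± 1.99 CPM (log2FC 0.25, adjusted p = 0.000371). Prdx5, a mitochondrial and peroxisomal peroxiredoxin, rose by 0.14 on the log2 scale from 119.6 ± 1.79 to 132 ± 2.82 CPM (adjusted p = 0.0131). That call was lost without control 2 (adjusted p = 0.095) and with library totals (adjusted p = 0.387), and an exon of Trmt112 on the opposite strand leaves the value uncertain. Prdx1, the most abundant of these genes in CPM, went from 374 ± 10 to 389 ± 4.59 CPM and did not pass (log2FC 0.06, SE 0.029, or −0.044 with library totals). Of the 6 thioredoxin and peroxiredoxin genes, 4 rose and 0 fell, where 21.3% of all genes were higher and 23.2% lower. Their summed level went from 1013 ± 16.2 to 1343 ± 26.5 CPM. Prdx6, at 154 ± 4.65 and 376 ± 4.42 CPM, accounted for most of that rise.

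**Figure D2:**
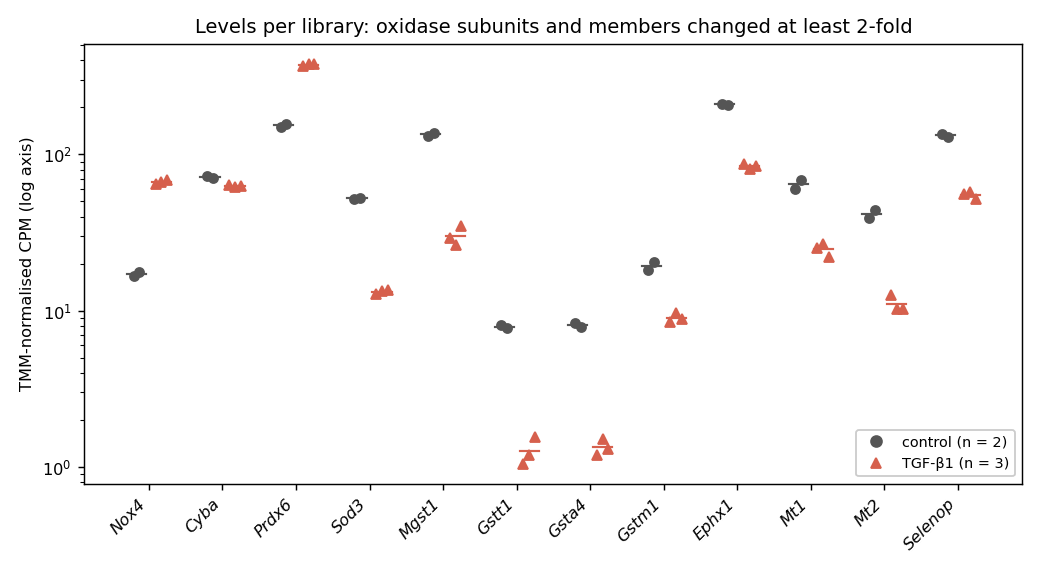
TMM-normalised CPM on a log axis for the 2 oxidase subunits and the 10 defence genes that changed at least 2-fold, with 1 point per library and a line at each group mean. Nox4 and Prdx6 lie higher with TGF-β1, the other 10 genes lie lower, and in none of the 12 do the groups overlap.

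Of the 3 superoxide dismutases, the secreted and the mitochondrial form fell, where 23.2% of all genes were lower. Sod3 (ENSMUSG00000072941, chr5:52363791-52371418), the secreted form that binds to matrix and is abundant in lung, was at 52.2 and 52.3 CPM in the controls and at 12.7, 13.3 and 13.5 CPM with TGF-β1. It was thus 3.97-fold lower, with no overlap (log2FC −1.99, SE 0.060, adjusted p = 1.19e-08). Sod2, the mitochondrial manganese form, fell from 73.3 and 74.5 CPM to 37.7, 41.2 and 44.3 CPM (log2FC −0.85, SE 0.066, adjusted p = 6.72e-06). Sod1, the cytosolic copper and zinc form, was at 99.3 ± 0.642 and 94.5 ± 2.51 CPM and did not pass (log2FC −0.07, SE 0.042, adjusted p = 0.2; with library totals −0.17, adjusted p = 0.00847). Catalase, Cat, which breaks down hydrogen peroxide in peroxisomes, was at 85.4 and 77.5 CPM in the controls and at 90.7, 92.1 and 89.7 CPM with TGF-β1 (log2FC 0.16, SE 0.051, adjusted p = 0.0302). The call of Cat was lost without control 2 (adjusted p = 0.257), without TGF-β1 replicate 1 (0.0547) or replicate 2 (0.0757), without the low-count filter (0.0651) and with library totals (0.372).

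Glutathione peroxidases use glutathione or other thiols to reduce peroxides. Of the 5 measured here 1 fell, 1 rose and 3 did not pass, a share of calls near the 44.5% of all genes. Gpx1, the main cytosolic form, fell from 173 and 186 CPM to 137, 127 and 129 CPM (log2FC −0.45, SE 0.047, adjusted p = 4.74e-05). Gpx3, the secreted form, rose from 86.5 and 88.1 CPM to 115, 111 and 112 CPM (log2FC 0.36, SE 0.040, adjusted p = 6.97e-05). Neither pair of groups overlapped, so a secreted peroxidase and a secreted dismutase, Gpx3 and Sod3, went opposite ways. Gpx4, which reduces lipid peroxides in membranes, was at 183 ± 3.76 and 172 ± 4.55 CPM and did not pass (log2FC −0.09, SE 0.036, adjusted p = 0.0724). It was called lower without TGF-β1 replicate 3 (adjusted p = 0.031) and with library totals (adjusted p = 0.00201), and its value is uncertain because 34.7% of the 50-base stretches of its transcripts also occur in the pseudogene Gpx4-ps2. The endoplasmic reticulum forms Gpx7 and Gpx8 did not pass, with log2 fold changes of −0.01 (SE 0.058) and 0.09 (SE 0.042). Those 2 signs were not fixed, Gpx7 turning to 0.0091 without control 1 and 0.0188 without TGF-β1 replicate 2, and Gpx8 to −0.012 with library totals.

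Nqo1, Hmox1 and Srxn1, well-known NRF2 targets as Txnrd1 is, did not pass the test with all 5 libraries. Nqo1, a quinone reductase, was scarce, at 6.99 and 7.82 CPM in the controls and 7.38, 7.40 and 8.79 CPM with TGF-β1. Hmox1, the inducible heme oxygenase, was at 287 and 271 CPM against 246, 249 and 274 CPM. Srxn1, which repairs overoxidised peroxiredoxins, was at 60.6 and 57.8 CPM against 55.4, 55.8 and 66.4 CPM. In each of the 3 genes, TGF-β1 replicate 3 was the highest of its group and lay within or above the range of the controls. The log2 fold changes were 0.08 (SE 0.131) for Nqo1, −0.12 (SE 0.049) for Hmox1 and 0.00 (SE 0.080) for Srxn1. The sign of Nqo1 and Srxn1 turned with library totals (−0.0165 and −0.0994) and without replicate 3 (−0.00449 and −0.0903), and Hmox1 was called lower with library totals (−0.22, adjusted p = 0.00445) and with upper-quartile scaling (−0.13, adjusted p = 0.0495).

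In the glutathione synthesis and recycling genes replicate 3 was again the highest TGF-β1 library, though by little in Gsr. There it exceeded the mean of replicates 1 and 2 by 0.073 on the log2 scale. In Gclm it lay within the range of the controls. Gclc, the catalytic subunit of the rate-limiting ligase, was at 26.2 and 28.6 CPM in the controls and at 29.9, 30.0 and 37.5 CPM with TGF-β1 (log2FC 0.24, SE 0.104, adjusted p = 0.0855). Gclm, its modifier subunit, was at 68.1 and 75.4 CPM against 62.2, 61.0 and 68.9 CPM (log2FC −0.17, SE 0.067, adjusted p = 0.0728). Both subunits of 1 enzyme thus had fitted values on opposite sides of 0, and neither passed. Gsr, the reductase that regenerates glutathione, was at 31.6 ± 2.19 and 35.4 ± 1.44 CPM (log2FC 0.16, SE 0.066, adjusted p = 0.0728). Leaving out TGF-β1 replicate 3 made Hmox1 (log2FC −0.17, adjusted p = 0.00133) and Gclm (−0.22, adjusted p = 0.00664) lower, and leaving out replicate 1 made Gclc higher (0.31, adjusted p = 0.0495). Gclm was also called lower with library totals (−0.265, adjusted p = 0.0105). An overlapping pseudogene on the same strand, Gm6061, leaves the value of Gclm uncertain.

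The excess in replicate 3 differed in size from gene to gene. On the log2 scale it exceeded the mean of replicates 1 and 2 by 0.33 in Gclc, 0.26 in Srxn1, 0.25 in Nqo1, 0.21 in Txnrd1, 0.16 in Gclm and 0.15 in Hmox1. It was as large or larger in genes of other roles, at 0.47 in Gstt1, 0.33 in Mgst1, 0.29 in Aox1 and 0.29 in Gsta3. In Txn1, Prdx1 and Prdx6 the differences were 0.00106, −0.00599 and 0.00716. Over all tested genes the median difference was −0.00426, and replicate 3 was the highest of the 3 in 35.5% of them against 18 of the 36 defence genes. In the metallothioneins replicate 3 was lower, by 0.24 on the log2 scale for Mt1 and 0.17 for Mt2.

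**Figure D3:**
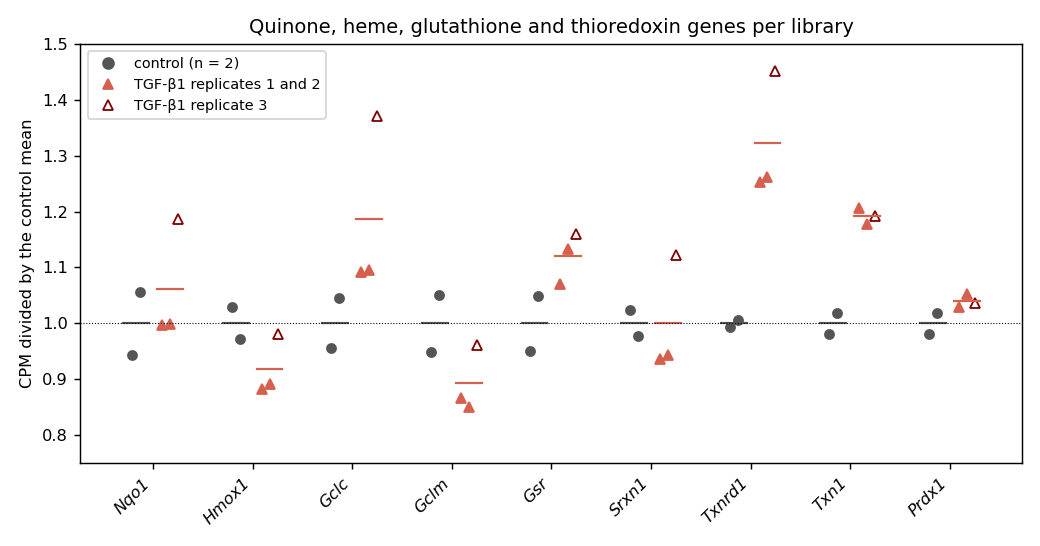
CPM of each library divided by the control mean for 9 quinone, heme, glutathione and thioredoxin genes, with a line at each group mean. TGF-β1 replicate 3 (open triangles) is the highest of its group in Nqo1, Hmox1, Gclc, Gclm, Gsr, Srxn1 and Txnrd1, and lies among the other 2 in Txn1 and Prdx1.

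Glutathione transferases, which join glutathione to reactive chemicals, were lower in 7 of 9 genes and higher in 0, where 23.2% of all genes were lower. Their summed CPM went from 346 ± 6.44 to 190 ± 4.29. Mgst1 (ENSMUSG00000008540, chr6:138140316-138156755), a membrane-bound transferase with peroxidase activity, was at 132 and 138 CPM in the controls and at 29.2, 26.4 and 34.9 CPM with TGF-β1. It accounted for most of the fall in summed CPM (log2FC −2.16, SE 0.093, adjusted p = 1.34e-07). Gstt1, of the theta class, fell from 8.06 and 7.73 CPM to 1.04, 1.19 and 1.55 CPM (log2FC −2.64, SE 0.187, adjusted p = 3.62e-06). Gsta4, whose enzyme is specialised for the lipid peroxidation product 4-hydroxynonenal, fell from 8.26 and 7.85 CPM to 1.19, 1.5 and 1.29 CPM (log2FC −2.59, SE 0.163, adjusted p = 1.6e-06). These were the largest proportional falls among the 36 genes, 6.26-fold and 6.06-fold, although from low levels.

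The mu class transferases lie in a cluster on chromosome 3, and 2 of the 3 fell, where 23.2% of all genes were lower. Gstm1 fell from 18.3 and 20.4 CPM to 8.50, 9.64 and 8.87 CPM (log2FC −1.11, SE 0.098, adjusted p = 1.71e-05). Its neighbour Gstm2, the more abundant, fell by 0.40 on the log2 scale from 76.4 ± 1.16 to 57.8 ± 0.389 CPM (adjusted p = 6.26e-05). Gstm5 did not pass, at 18.8 ± 1.10 and 17.2 ± 1.3 CPM (log2FC −0.13, SE 0.089). Of their 50-base transcript stretches, 18.9% in Gstm1, 5.65% in Gstm2 and 9.44% in Gstm5 also occur in other genes, and Gstm5 overlaps an exon of 4933431E20Rik on the opposite strand, so its value is uncertain. The remaining transferases were Gsta3 (3.06 ± 0.151 to 1.73 ± 0.208 CPM, lower, but adjusted p = 0.0577 without control 2) and Mgst3 (4.14 ± 0.0962 to 2.08 ± 0.290 CPM, lower). Gstp1, the pi class enzyme, did not pass at 73.7 ± 3.24 and 69.0 ± 2.05 CPM (log2FC −0.10, SE 0.050), was called lower with library totals (−0.20, adjusted p = 0.0114), and shares 33.7% of its stretches with Gstp2.

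All 4 tested genes of aldehyde and xenobiotic oxidation fell, where 23.2% of all genes were lower. Ephx1 (ENSMUSG00000038776, chr1:180976210-181020904), the microsomal epoxide hydrolase, was at 209.8 and 209 CPM in the controls and at 87.4, 80.8 and 84.5 CPM with TGF-β1 (log2FC −1.31, SE 0.041, adjusted p = 1.47e-08). Cyp1b1, a cytochrome P450 of stromal cells and a target of the aryl hydrocarbon receptor, fell from 339 and 353 CPM to 242, 258 and 248 CPM (log2FC −0.47, SE 0.035, adjusted p = 5.15e-06). Aldh2, the mitochondrial aldehyde dehydrogenase, fell from 194 ± 1.67 to 163 ± 0.821 CPM (log2FC −0.25, adjusted p = 0.000159). Ephx1 moved most and Aldh2 least, and the spread within each group was small beside either fall. Aox1, aldehyde oxidase, went from 9.86 ± 0.120 to 6.96 ± 0.917 CPM (log2FC −0.50, adjusted p = 0.0122), a call lost without control 1 (adjusted p = 0.0739) or control 2 (adjusted p = 0.0606).

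Both metallothioneins fell. Mt1 (ENSMUSG00000031765, chr8:94179082-94180327) was at 60.1 and 68.4 CPM in the controls and at 25.2, 26.7 and 22 CPM with TGF-β1 (log2FC −1.38, SE 0.086, adjusted p = 1.47e-06). Mt2 (ENSMUSG00000031762, chr8:94172664-94173568) fell from 39.1 and 44.3 CPM to 12.6, 10.2 and 10.2 CPM (log2FC −1.92, SE 0.103, adjusted p = 5.45e-07). Control 2 was the higher control for both, and no TGF-β1 library reached either control. Of the stretches of Mt2, 45.8% also occur in Gm45774, which had 22 counts in all libraries together, so it could take few reads. The other metallothioneins, Mt3 and Mt4, were not tested, with at most 0.0476 summed CPM. Slc30a1, the zinc exporter that MTF1 also drives, was at 28.5 and 27.9 CPM in the controls and at 19.6, 18.9 and 12.1 CPM with TGF-β1 (log2FC −0.74, SE 0.168, adjusted p = 0.00596). TGF-β1 replicate 3 was the lowest library for Slc30a1 as for Mt1, and the Slc30a1 call was lost without control 1 (adjusted p = 0.0545). Mtf1 itself was at 22.3 ± 0.909 and 22.6 ± 0.393 CPM and did not pass (log2FC 0.02, SE 0.068). The overlapping gene 1110065P20Rik leaves the value of Mtf1 uncertain.

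Selenop (ENSMUSG00000064373, chr15:3268547-3280508), the secreted selenium carrier, was at 136 and 128 CPM in the controls and at 56.2, 57.3 and 51.5 CPM with TGF-β1 (log2FC −1.26, SE 0.055, adjusted p = 1.32e-07). Lrp8, a receptor for it, went the other way, from 13.6 ± 0.529 to 24.8 ± 2.39 CPM (log2FC 0.86, adjusted p = 7.43e-05). Among the selenium machinery and other selenoproteins, 9 of 20 tested rose and 3 fell, where 21.3% of all genes were higher, with a median log2FC of 0.13. Selenoi rose by 0.46 on the log2 scale, from 56.1 ± 2.35 to 77.3 ± 3.87 CPM. Selenoo fell by 0.39, from 23.5 ± 1.86 to 18.0 ± 1.42 CPM, a call lost without control 1 (adjusted p = 0.0829) and uncertain for the overlapping exons of Tubgcp6. The selenoprotein genes among the defence genes, Gpx1, Gpx3, Gpx4, Txnrd1 and Selenop, thus held 2 rises, 2 falls and 1 that did not pass. Over all genes, 21.3% were higher and 23.2% lower.

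**Figure D4:**
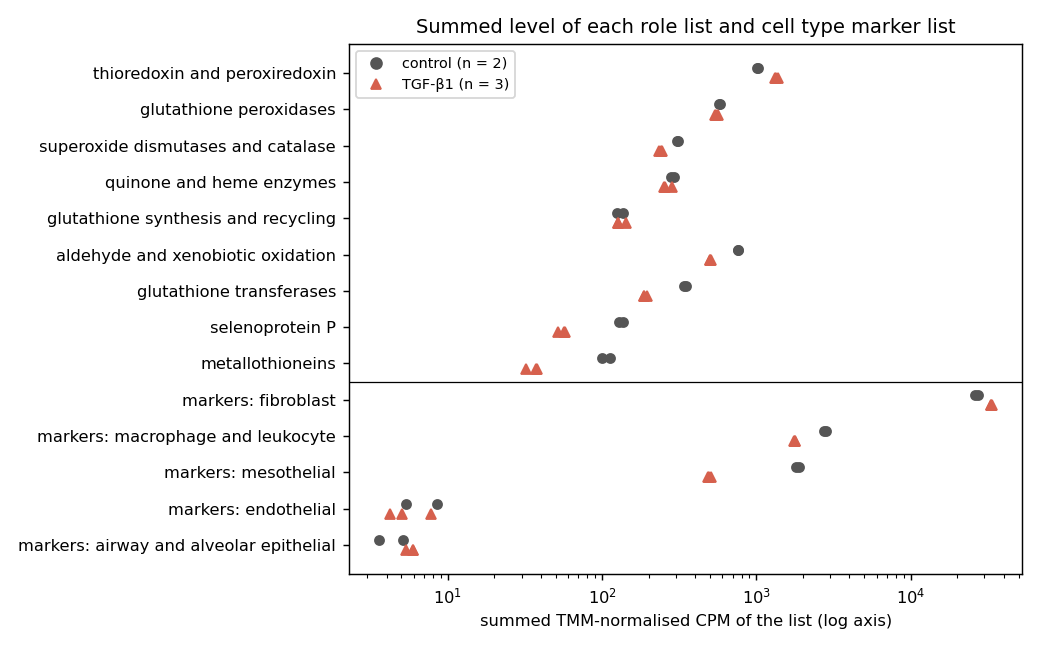
Summed TMM-normalised CPM per library on a log axis for the 9 defence roles (above the line) and 5 cell type marker lists (below the line). The thioredoxin and peroxiredoxin sum is higher with TGF-β1, the transferase, aldehyde and xenobiotic, selenoprotein P and metallothionein sums are lower, and the macrophage and mesothelial marker sums are lower in the same libraries.

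Set per kilobase of exon, so that genes can be compared, the control levels were led by Hmox1 at 159 ± 6.38 CPM per kb, then Txn1 at 132 ± 3.53, Gpx1 at 124 ± 6.43, Prdx1 at 123 ± 3.30, Ephx1 at 107 ± 0.341 and Gpx4 at 106 ± 2.18 (SD, n = 2). Within 1 SD of each mean, Gpx1 overlapped its neighbours Txn1 and Prdx1, and Ephx1 overlapped Gpx4. With TGF-β1 the order was Txn1 at 157 ± 1.90, Hmox1 at 146 ± 8.73, Prdx1 at 128 ± 1.51, Gpx4 at 99.8 ± 2.64, Gpx8 at 96.9 ± 2.71 and Gpx1 at 90.8 ± 3.72 (SD, n = 3), and Ephx1 stood at 43.2 ± 1.70. Within 1 SD, Gpx8 overlapped both Gpx4, whose value is uncertain, and Gpx1. Exon length is the union over all annotated transcripts, which lowers the value of genes with long rare isoforms.

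Regulators of the NRF2 pathway had log2 fold changes from −0.33 (Keap1) to 0.86 (Bach2). Nfe2l2, the gene of NRF2, was at 157 and 154 CPM in the controls and at 158, 161 and 165 CPM with TGF-β1 and did not pass (log2FC 0.05, SE 0.036, or −0.0469 with library totals). Keap1, its inhibitor, fell from 65.8 and 61.6 CPM to 51.1, 50.3 and 50.2 CPM (log2FC −0.33, SE 0.049, adjusted p = 0.000482). Bach1, a repressor at the same DNA element, went from 39.3 ± 1.63 to 46.3 ± 4.60 CPM (log2FC 0.24, adjusted p = 0.0376). Its call was lost without control 1 (adjusted p = 0.217) or control 2 (0.0928), without the low-count filter (0.0931), with library totals (0.2) and with the replicate block (0.057). The related repressor Bach2 rose from 4.93 ± 1.05 to 8.95 ± 1.12 CPM, a value left uncertain by its antisense gene Bach2os. Also higher was Mafk, a small MAF partner of NRF2, going from 40.8 ± 0.463 to 62.1 ± 3.21 CPM (log2FC 0.61). Sqstm1, an autophagy receptor that binds KEAP1, rose from 311 ± 11 to 462 ± 20.1 CPM (log2FC 0.57). Of 11 regulators tested, 7 rose, 1 fell and 3 had no call, where 21.3% of all genes were higher.

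In the aryl hydrocarbon receptor and metal list, 6 of 7 tested genes were lower and 0 were higher, where 23.2% of all genes were lower and 21.3% higher, and the median log2FC was −0.41. The receptor gene Ahr fell from 76.9 and 69.2 CPM to 55.9, 54.9 and 53.5 CPM (log2FC −0.41, SE 0.056, adjusted p = 0.000268), and its target Tiparp from 25.7 ± 1.27 to 14.5 ± 0.714 CPM (log2FC −0.83). Cyp1b1, described above, is a target of the same receptor and fell in these libraries too. Any link between the fall of Ahr and those of Tiparp and Cyp1b1 was not tested.

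The other glutathione genes held more rises than falls, with 8 of 17 tested higher, 2 lower and 7 without a call, where 21.3% of all genes were higher and 23.2% lower. Slc7a11, the cystine importer that feeds glutathione synthesis, rose from 9.21 and 8.13 CPM to 19.4, 19.0 and 19.6 CPM (log2FC 1.16, SE 0.092, adjusted p = 7.62e-06). Glrx, glutaredoxin, which removes glutathione from proteins, fell from 44.5 and 41.3 CPM to 15.5, 15.4 and 16.2 CPM (log2FC −1.45, SE 0.065, adjusted p = 1.78e-07). In neither gene did the groups overlap. The other glutaredoxins of the list did not fall: Glrx3 (log2FC 0.12) and Glrx5 (0.28) were higher, and Glrx2 (0.04) did not pass. Oplah, which recycles 5-oxoproline, fell from 16.4 ± 2.14 to 6.64 ± 0.417 CPM, and the overlapping gene Exosc4 leaves it uncertain.

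Among the other thioredoxin genes, 5 of 15 rose, 2 fell and 8 had no call, so that 7 of 15 were called, a share near the 44.5% of all genes. Mitochondrial thioredoxin, Txn2, rose from 72.5 ± 1.04 to 98.9 ± 3.26 CPM (log2FC 0.45), and the stress-induced sestrins Sesn1 and Sesn3 fell from 32.3 ± 1.26 to 16.5 ± 0.418 CPM (log2FC −0.97) and from 76.0 ± 0.206 to 51.0 ± 3.12 CPM (log2FC −0.58). The other sestrin of the list, Sesn2, was at 72.6 ± 0.536 and 87.8 ± 13.9 CPM and did not pass (log2FC 0.28). Of 10 other glutathione transferases tested, 5 fell, 1 rose and 4 had no call, where 23.2% of all genes were lower. The one that rose was Gsto1, the omega class enzyme, from 60.6 and 66.5 CPM to 102, 106 and 107 CPM (log2FC 0.72, SE 0.052, adjusted p = 4.1e-06). Gstt3, beside Gstt1 on chromosome 10, fell from 15.4 ± 0.0758 to 8.92 ± 0.976 CPM (log2FC −0.78), and Gstm4 from 10.1 ± 0.557 to 7.07 ± 0.830 CPM (log2FC −0.52, but adjusted p = 0.0765 without control 2).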

How the data were processed

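Counts per Ensembl gene, whole and unscaled, are what the authors deposited for the 5 libraries. Per the labels' protocols, RNA was taken with RNAiso Plus and made into strand-specific mRNA libraries with a VAHTS kit. The submitters' processing notes name STAR 2.5.3a, StringTie 1.3.1c and mm10 with no role, while the sources used here name neither the counting tool nor its strand setting. GENCODE M21 (GRCm38, the same assembly) gave symbols for 55154 of the 55335 IDs.

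Genes were filtered with filterByExpr, scaled with TMM, and tested with edgeR's quasi-likelihood test on group alone (two-sided, Benjamini-Hochberg over 16380 genes, threshold 0.05). SE is the log2 fold change over the square root of F. For a single gene, exact permutation with these group sizes has 0.1 as its smallest p. Simulated counts for 16380 genes held 50 changed genes at each of 4 sizes. The same test found 15 at 1.25-fold, 34 at 1.5-fold, 43 at 2-fold and 49 at 4-fold. Another 20 calls were false, a larger share of the calls than the threshold of 0.05. The Benjamini-Hochberg cut-off depends on how many genes change, and in the data 44.5% were called. With so few changed genes in the simulation, its rates do not carry over to the real comparison. Fits used edgeR 4.0.16 in R 4.3.3, with DESeq2 1.42.0 and limma 3.58.1 as alternatives, and promoter scans and plots used Python 3.11.15 with pandas 2.3.3, matplotlib 3.10.9 and numpy 2.4.6.

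The members and lists were chosen with earlier results of these data known. Named genes were all 39 members and, from each of 11 related lists, up to 3 called genes of at least 5 CPM with no overlap of groups, by size of change, plus Nfe2l2, Keap1, Bach1 and Cybb. Poldip2, Nox1, Glrx2, Glrx3, Glrx5, Sesn2, Mtf1, the marker genes and the counts for the other metallothioneins were named outside that rule. A value was marked uncertain where an exon-overlapping gene had over 0.1 of its counts, or where 50-base transcript stretches are shared with a counted copy. Alternatives were other scalings, filters and tests, a replicate block, and leaving out each library.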

Additional observations from a re-analysis of the deposited data

How the results depend on the processing

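Of 532 refits of single members, 481 kept both direction and call, 24 lost the call, 13 gained one and 14 turned sign. In every setting 14 of the 38 tested members held, among them Nox4, Prdx6, Sod2, Sod3, Mgst1, Gstt1, Gsta4, Gstm1, Ephx1, Mt1, Mt2 and Selenop. The 14 also include Gsr and Gstm5, which passed the test in no setting. Against a 1.5-fold change, 563 genes were higher and 1223 lower, with 1 defence gene higher and 10 lower, and Cyba (log2 fold change −0.20) was not called. With library totals 2325 genes were higher, and the defence median was −0.24. Leaving out 1 library gave medians from −0.20 to −0.12 and fold changes of Cyba from −0.21 to −0.18. Signs that turned were all of small, uncalled values: with library totals Nqo1 −0.0165, Gpx8 −0.012, Prdx1 −0.044, Srxn1 −0.0994 and Nfe2l2 −0.0469; with upper-quartile scaling Srxn1 −0.00836; without the low-count filter Srxn1 −0.00165; with limma-voom Srxn1 −0.00518; and leaving out 1 library, with ranges over the 5 fits, Gpx7 (−0.0342 to 0.0188), Nqo1 (−0.00449 to 0.17) and Srxn1 (−0.0903 to 0.0515). The cause was not tested. Labels number the replicates, and deviations of same-numbered libraries correlated at only 0.0159 and 0.0161. The deviations of the 2 controls mirror each other, so whether same-numbered libraries share an origin cannot be decided from this. With the replicate block, which leaves TGF-β1 replicate 3 without a partner, 6 defence genes were higher and 20 lower, the median was −0.20, and Nqo1 (−0.00234) and Srxn1 (−0.0903) turned sign. The call of Bach1 was lost (0.15, adjusted p = 0.057), and Hmox1, Gclm and Gpx4 were called lower. Libraries held at least 34283288 counts, and 6 tested members (Gsta3, Gsta4, Gstt1, Mgst3, Nqo1 and Aox1) lay under 10 CPM in every library.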

Other observations

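Among iron-handling genes, which are outside the 39, the ferritin heavy chain fell and iron transport genes rose. Fth1, the ferritin heavy chain that stores iron in a safe form, was at 2093 and 2194 CPM in the controls and at 846, 847 and 867 CPM with TGF-β1 (log2FC −1.33, SE 0.025, adjusted p = 7.82e-10 by edgeR). Slc40a1, the iron exporter ferroportin, rose from 3.88 ± 0.584 to 11.3 ± 1.5 CPM (log2FC 1.55), and the transferrin receptor Tfrc rose from 43.6 ± 1.58 to 68.1 ± 2.36 CPM (log2FC 0.64). Of the 7 ferritin and ferroptosis genes tested, 4 rose, 2 fell and 1 had no call, where 44.5% of all genes were called. In the same libraries Hmox1, which releases iron from heme, stood at 279 ± 11.2 and 256 ± 15.3 CPM and did not pass.

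Other carbonyl, quinone and aldehyde enzymes were mostly lower, 15 of 25 tested against 2 higher, beside 23.2% of all genes lower. Aldh1a1, a retinaldehyde and aldehyde dehydrogenase, fell from 188 and 179.8 CPM to 7.81, 8.09 and 6.98 CPM (log2FC −4.59, SE 0.063, adjusted p = 9.03e-11). Xdh, xanthine oxidoreductase, which can itself make superoxide, fell from 97.4 and 101 CPM to 21.6, 23.1 and 21.6 CPM (log2FC −2.17). Aldh1l2, the mitochondrial folate enzyme that makes NADPH, rose from 77.7 ± 4.18 to 211 ± 5.16 CPM (log2FC 1.44), a value left uncertain by overlapping exons of D10Wsu102e. In the NADPH supply list, 2 of 11 were higher and 6 were lower, where 21.3% of all genes were higher and 23.2% lower. Mthfd2, of the same mitochondrial folate route, rose from 91.1 ± 2.97 to 151 ± 8.60 CPM. Idh2 fell from 59.0 ± 0.900 to 43.2 ± 1.68 CPM and Nnt from 104 ± 4.24 to 79.5 ± 2.00 CPM.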
